A study of Mus musculus with 12 samples.

Results

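The enzymes and regulators of glycolysis and glycogen metabolism were described in gastrocnemius muscle of mice. The set held 40 genes chosen by symbol: 16 glycolytic enzymes, 18 proteins of glycogen synthesis, breakdown and control, 4 enzymes of the glycerol phosphate and malate-aspartate shuttles, and 2 lactate transporters. The deposited expression table listed 10475 genes, among them 39 of the 40. Pgam1, the phosphoglycerate mutase of non-muscle tissues, was not among the listed genes.

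The study sequenced poly(A) RNA of gastrocnemius from C57BL/6 mice aged 8 weeks. TG mice overexpressed E4BP4, a circadian transcriptional repressor encoded by Nfil3, in the liver only, and wild-type (WT) mice did not. All mice ate chow freely in a cycle of 12 h light and 12 h dark, and no other treatment is given. Muscle was taken at ZT12, the start of the dark phase, and at ZT0, the start of the light phase, which gave 4 groups of 3 libraries: TG ZT12, WT ZT12, TG ZT0 and WT ZT0. The promoter that drove the transgene and the sex of the mice are not given in the sources used here. Because the transgene acts in liver, no muscle transcript checks the genotype labels; Nfil3 itself was listed between 7.40 and 20.9 TPM in the 12 muscle libraries. Whether the libraries of a group come from different mice is not stated, so p-values measure the spread between these libraries. In whole muscle, fewer cells of a type and less RNA per cell cannot be told apart.

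Glycolysis turns glucose into pyruvate and yields ATP without oxygen, and lactate dehydrogenase turns pyruvate into lactate so that the pathway can go on. Skeletal muscle stores glucose as glycogen, which glycogen phosphorylase breaks down after phosphorylase kinase, switched on by calcium and adrenaline, has activated it; glycogen synthase rebuilds the store when protein phosphatase 1, held on the glycogen particle by targeting subunits, activates it. The gastrocnemius of the mouse consists mostly of fast fibres, which rely on this pathway.

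Levels were given as TPM, in which reads are divided by transcript length and scaled to a fixed total, so that genes can be compared within a library. The 12 libraries held 9213368 to 20157289 reads on listed genes, as recovered from the TPM values: 13126327 to 15780301 in TG ZT12, 17715537 to 20157289 in WT ZT12, 10388087 to 11451631 in TG ZT0 and 9213368 to 13149150 in WT ZT0, so depth moved with time. At ZT12 depth also moved with genotype, as every TG library held fewer reads than every WT library. All 12 markers of fast fibres and all 6 of skeletal muscle were listed, with summed levels of 85155 to 105086 TPM for fast fibres against 157 to 796 TPM for the 8 listed slow-fibre markers. Hepatocyte, neutrophil and satellite-cell markers were not among the listed genes. No listed gene lay below 1 TPM in WT ZT0 replicate 1, so absence from the list gives no level in the other libraries. A pair of libraries stood apart. WT ZT0 replicate 2 had 739 TPM of the antigen-presentation gene Cd74, against 29.8 to 83.5 TPM elsewhere, and TG ZT12 replicate 1 was low for long transcripts. Several of the results that rest on them are given with and without them.

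The glycolytic enzymes of the muscle type stood among the most abundant transcripts. Aldoa, the aldolase that splits fructose 1,6-bisphosphate, averaged 10135 TPM over the 12 libraries, rank 9 of the 10475 genes by mean level. Eno3, the muscle enolase, averaged 3831 TPM, and Pgam2, the muscle phosphoglycerate mutase, 2648 TPM. Ldha, which makes lactate, averaged 1677 TPM. Pfkm, the muscle subunit of the rate-setting phosphofructokinase, averaged 1254 TPM, Tpi1, the triose phosphate isomerase, 1207 TPM, and Pkm, the pyruvate kinase, 1145 TPM. Gpi1, which turns glucose 6-phosphate into fructose 6-phosphate, was lower at 212 TPM. Together the 39 listed members held 5.48% to 7.04% of the listed TPM of a library, with a median of 6.42%; the lowest and the highest share both came from TG ZT12, replicates 1 and 2.

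Aldoa had 8701, 11778 and 10636 TPM in TG ZT12 and 9896, 10620 and 9932 TPM in WT ZT12. It had 10313, 10066 and 10368 TPM in TG ZT0 and 9959, 9660 and 9696 TPM in WT ZT0. The 3 TG ZT0 libraries lay above the 3 WT ZT0 libraries by a small margin, and the TG ZT12 libraries spanned the whole range. Pygm, the muscle glycogen phosphorylase, had 1634, 3263 and 3110 TPM in TG ZT12, 2345, 2575 and 2328 TPM in WT ZT12, 2963, 2667 and 2637 TPM in TG ZT0, and 2700, 2852 and 2557 TPM in WT ZT0. Its groups overlapped between genotypes and between times.

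Where an enzyme has several isoforms, the muscle form made up nearly all of the transcript in every library. The share of Pfkm in the phosphofructokinase genes Pfkm, Pfkl and Pfkp was 99.1% to 99.7% of their TPM. Eno3 held 99.3% to 99.7% of the enolases, and Ldha 97.2% to 98.5% of the lactate dehydrogenases, with Ldhb, the heart form, making up the rest. Pygm held 99.7% to 99.9% of the phosphorylases Pygm and Pygb. Phkg1, the muscle catalytic subunit of phosphorylase kinase, held 96.4% to 99.0% of the catalytic subunits against Phkg2, the liver and testis form. WT ZT0 replicate 2 gave the lowest share of Pfkm, Eno3, Pygm and Phkg1. Among the minor forms, Pfkl reached 6.995 TPM, Pygb 7.16 TPM and Phkg2 9.28 TPM in that library.

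**Figure D1:**
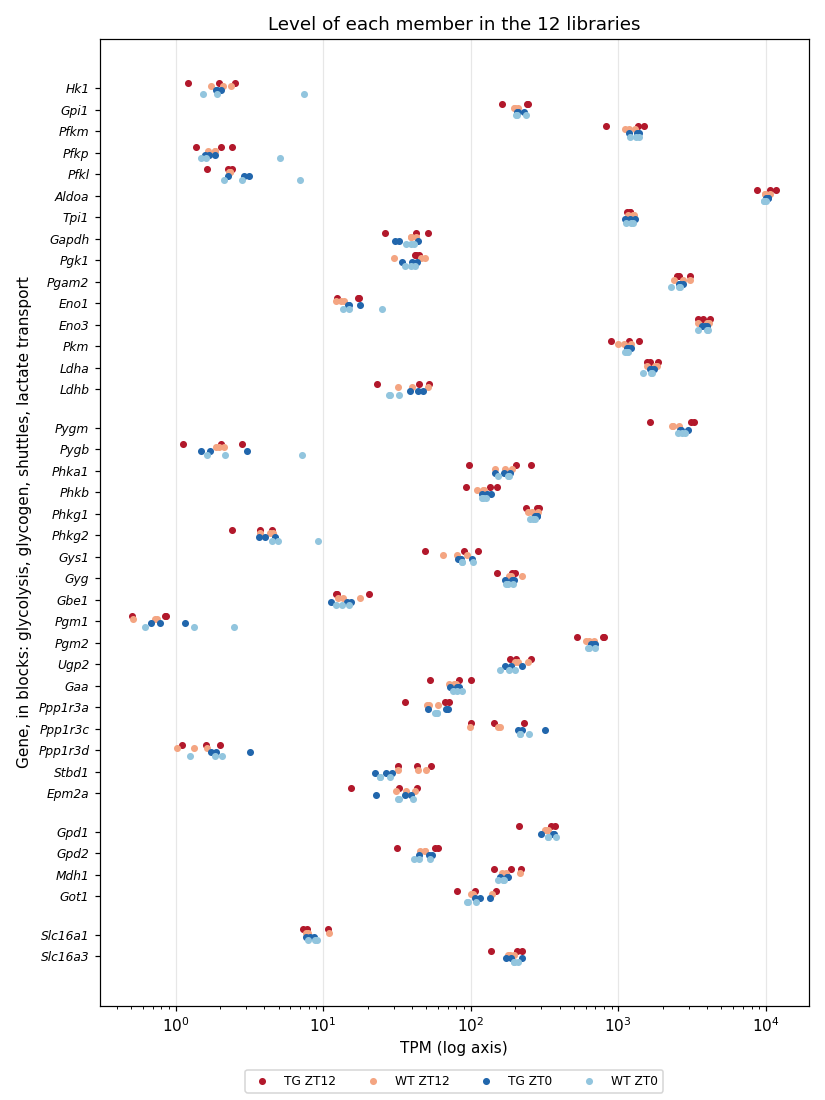
TPM (log axis) of each listed member in the 12 libraries, 1 point per library, with the groups in the order TG ZT12, WT ZT12, TG ZT0 and WT ZT0 from top to bottom within a gene. Levels span from 0.51 TPM (lowest Pgm1 library) to 11778 TPM (highest Aldoa library), and the points of the 4 groups overlap for nearly all genes.

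A few glycolytic enzymes were listed at levels far below their neighbours in the pathway. Gapdh, which oxidises glyceraldehyde 3-phosphate, averaged 38.8 TPM and Pgk1, the next enzyme, 40.8 TPM, between Tpi1 and Pgam2 at 1207 and 2648 TPM. Both share sequence with other loci: of all windows of 50 bases in the annotated transcript, 82.5% of those of Gapdh and 68.0% of those of Pgk1 also occurred in transcripts of other loci. For Gapdh the windows matched 222 other genes, 213 of them pseudogenes, and for Pgk1 5, all 5 pseudogenes. Eno1, the widely expressed enolase, averaged 15.6 TPM with 72.2% shared windows. The shares were 0% for Pfkm, Eno3 and Pgam2, 14.4% for Aldoa, 19.1% for Ldha and 33.2% for Pkm. Low level also occurred with little shared sequence: Hk1 and Pfkp had 0% and Pfkl 0.0543%, at means of 2.38, 2.04 and 2.80 TPM. How reads that fit several loci were counted is not given in the sources used here, so the levels of Gapdh, Pgk1 and Eno1, and shares that use Eno1, are uncertain, and the part of shared sequence in them was not tested. In the authors' deposited comparison tables, Pgam1 (41.5% shared windows) had nearly equal values in all 6 ZT0 libraries and a value of 0 in all 6 ZT12 libraries, so no level is given for it.

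**Figure D2:**
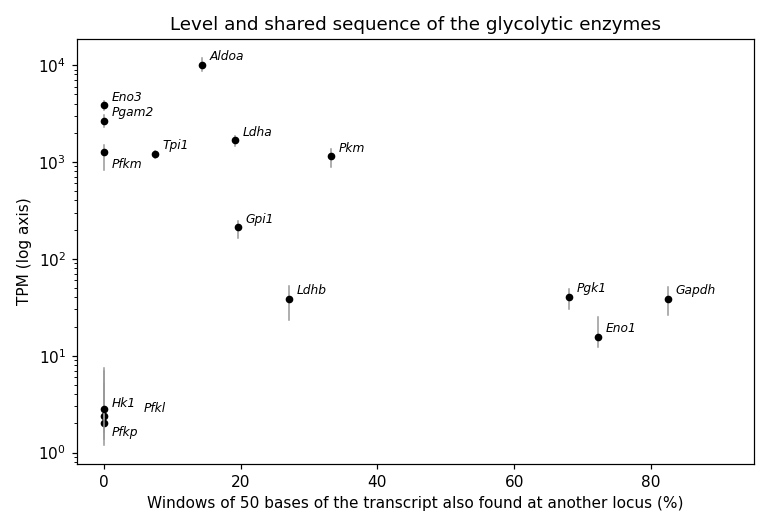
Mean TPM (log axis) of the 15 listed glycolytic enzymes against the percentage of 50-base windows of the transcript that also occur at another locus; grey bars span the 12 libraries. Gapdh, Pgk1 and Eno1, at 68.0% or more, lie between 15.6 and 40.8 TPM, while Aldoa, Eno3, Pgam2, Pfkm, Tpi1, Pkm and Ldha, at 33.2% or less, lie at 1145 TPM or more. Hk1, Pfkp, Pfkl, Ldhb and Gpi1, also at 33.2% or less, lie between 2.04 and 212 TPM.

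Hexokinase, which traps glucose in the cell, was represented among the members by Hk1 with a mean of 2.38 TPM. Hk2, the insulin-regulated muscle hexokinase and not a member, averaged 57.4 TPM.

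Glycogen breakdown was led by Pygm with a mean of 2636 TPM. Of the subunits of phosphorylase kinase, Phkg1 averaged 269 TPM, the regulatory subunit Phka1 173 TPM and the regulatory subunit Phkb 124 TPM. Gaa, the lysosomal glucosidase that is deficient in Pompe disease, averaged 78.7 TPM. Of the phosphoglucomutases, the deposited symbol Pgm2 (chr4:99929451-99987294, mm10), the orthologue of human PGM1, averaged 669 TPM, and the deposited symbol Pgm1 (chr5:64092950-64128158), the orthologue of human PGM2, averaged 0.94 TPM. Pgm1 was the member of lowest level, with 18 to 76 reads a library. No listed gene lay below 1 TPM in the library WT ZT0 replicate 1, and Pgm1 met that limit with 1.33 TPM while 9 other libraries lay below 1 TPM. It entered the tests with 3 libraries at 1 TPM or more, 2 of them WT ZT0, so its fold changes are not given singly. They are still included in the counts, medians and intervals of the 39 members and of the 18 glycogen genes.

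On the side of synthesis, Ugp2, which makes UDP-glucose, averaged 202 TPM, the primer protein glycogenin (Gyg) 187 TPM, the muscle glycogen synthase Gys1 86.7 TPM and the branching enzyme Gbe1 14.3 TPM. Ppp1r3c, a subunit that targets protein phosphatase 1 to glycogen, averaged 193 TPM, Ppp1r3a, the large muscle subunit, 58.5 TPM and Ppp1r3d 1.72 TPM. Ppp1r3c thus made up 61.5% to 81.6% of the 3 targeting subunits, the most variable share of those computed. Stbd1, which binds glycogen and tethers it to membranes for delivery to lysosomes, averaged 34.2 TPM, and Epm2a, the glycogen phosphatase laforin that is mutated in Lafora disease, 33.7 TPM.

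In the shuttles that carry the electrons of glycolytic NADH to mitochondria, the cytosolic glycerol 3-phosphate dehydrogenase Gpd1 averaged 332 TPM and its mitochondrial partner Gpd2 48.4 TPM. The cytosolic malate dehydrogenase Mdh1 averaged 175 TPM and the aspartate transaminase Got1 111 TPM. Slc16a3, the lactate exporter MCT4 of fast fibres, averaged 192 TPM and Slc16a1, the transporter MCT1, 8.57 TPM; Slc16a3 held 94.7% to 96.3% of the pair.

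Between the times of day, Stbd1 was the 1 member that passed the test. Its transcript was higher at ZT12 than at ZT0 in mice of both genotypes. Ppp1r3c was lower at ZT12 with an adjusted p above the threshold of 0.05, and no glycolytic enzyme, shuttle enzyme or lactate transporter passed the test. The test was limma on log2(TPM + 1) over the 10415 genes that reached 1 TPM in 3 or more libraries, with Benjamini-Hochberg adjustment over all of them. In the comparison over both genotypes, 1.02% of all genes tested were called, and 1 of 39 members was.

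Stbd1 (chr5:92603051-92606579, plus strand) had 32.0, 54.2 and 43.3 TPM in TG ZT12 and 32.0, 50.1 and 43.7 TPM in WT ZT12. It had 29.1, 26.5 and 22.6 TPM in TG ZT0 and 28.6, 24.2 and 24.2 TPM in WT ZT0. Every ZT12 library lay above every ZT0 library; 1.53% of all genes tested had no overlap between the times, in either direction. The means were 42.6 ± 9.13 TPM at ZT12 and 25.9 ± 2.62 TPM at ZT0 (SD, 6 libraries each). The log2 fold change of ZT12 over ZT0 was 0.68 ± 0.13 (SE, 95% interval 0.39 to 0.96), an increase of 1.60 times (adjusted p = 0.0276, limma with Benjamini-Hochberg adjustment). It was 0.68 in TG mice (adjusted p = 0.563, limma) and 0.67 in WT mice (adjusted p = 0.422, limma), with an interaction of 0.02 ± 0.28 (SE). Within each genotype the comparison called 0.154% of all genes in TG mice and 0.115% in WT mice, and no member.

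The call for Stbd1 stood close to the threshold. Its adjusted p in limma lay between 0.0513 and 0.0807 when 1 of 7 libraries was left out (TG ZT12 replicate 2 or 3, WT ZT12 replicate 2 or 3, TG ZT0 replicate 2 or 3, or WT ZT0 replicate 3), and was 0.525 with log2 depth as a covariate, where the log2 fold change was 0.74; depth and time cannot be told apart here. Without the 2 libraries that stood apart the log2 fold change was 0.75 (adjusted p = 0.00652, limma). Transcripts of red blood cells also moved with time in part of the libraries: the 5 listed erythroid markers summed to 1526 to 4565 TPM in 4 of the ZT12 libraries and to 86.2 to 163 TPM at ZT0. In TG ZT12 replicate 3 and WT ZT12 replicate 3 they summed to 145 and 176 TPM, and Stbd1 was at 43.3 and 43.7 TPM there. In the 4 ZT12 libraries with more of them, Stbd1 was at 32.0 and 54.2 TPM (TG) and at 32.0 and 50.1 TPM (WT). The part of blood in the Stbd1 values was not tested.

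Ppp1r3c (chr19:36731731-36736604, minus strand) had 101.1, 230 and 143 TPM in TG ZT12 and 98.4, 154 and 157 TPM in WT ZT12. It had 320, 221 and 210 TPM in TG ZT0 and 247, 216 and 216 TPM in WT ZT0. In WT mice all ZT12 libraries lay below all ZT0 libraries, and in TG mice the highest ZT12 library, replicate 2, lay within the ZT0 range. The means were 147 ± 48.1 TPM at ZT12 and 238 ± 42.2 TPM at ZT0 (SD, 6 libraries each). The log2 fold change was -0.73 ± 0.18 (SE, 95% interval -1.13 to -0.34; adjusted p = 0.1004, limma with Benjamini-Hochberg adjustment). It was -0.72 in TG mice and -0.75 in WT mice, neither of which passed the test, and the value in TG mice ranged from -1.03 to -0.44 with 1 library left out. Over both genotypes it missed the threshold in most alternatives. It was -0.63 without WT ZT12 replicate 1 (adjusted p = 0.234, limma), -0.65 without TG ZT0 replicate 1 (adjusted p = 0.246, limma), -0.61 without the pair of libraries that stood apart (adjusted p = 0.0772, limma) and -0.81 with log2 depth as a covariate (adjusted p = 0.525, limma). Without TG ZT12 replicate 2 it was -0.87 and passed (adjusted p = 0.0180, limma), and it also passed with median-of-ratios scaling (-0.70, adjusted p = 0.0470, limma), with the 10 most abundant genes removed (-0.75, adjusted p = 0.0444, limma) and with limma-voom on the recovered reads (-0.73, adjusted p = 0.0305).

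**Figure D3:**
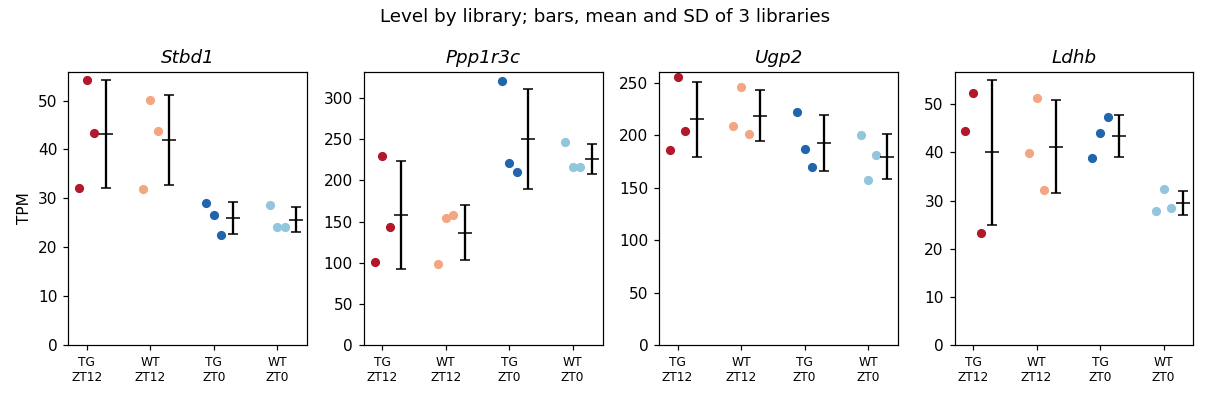
TPM by library of Stbd1, Ppp1r3c, Ugp2 and Ldhb in TG ZT12, WT ZT12, TG ZT0 and WT ZT0, with the mean and SD of 3 libraries beside the points. The ZT12 points of Stbd1 (32.0 to 54.2 TPM) lie above its ZT0 points (22.6 to 29.1 TPM), and those of Ppp1r3c lie mostly below, with 1 TG ZT12 library at 230 TPM.

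The sequences before the start sites of Stbd1, the member called for time, and Ppp1r3c, the member with the next smallest p, are shown. They are the 250 bases before the RefSeq start (build GRCm38.p6), chr5:92602801-92603050 on the plus strand for Stbd1 and chr19:36736605-36736854 on the minus strand for Ppp1r3c. The capitals mark the E-box CACGTG, the element bound by the clock factors BMAL1 and CLOCK.
Stbd1: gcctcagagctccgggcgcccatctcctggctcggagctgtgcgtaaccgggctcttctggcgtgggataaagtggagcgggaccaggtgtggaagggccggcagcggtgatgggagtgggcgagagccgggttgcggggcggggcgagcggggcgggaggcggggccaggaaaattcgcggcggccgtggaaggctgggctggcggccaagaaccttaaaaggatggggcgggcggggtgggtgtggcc
Ppp1r3c: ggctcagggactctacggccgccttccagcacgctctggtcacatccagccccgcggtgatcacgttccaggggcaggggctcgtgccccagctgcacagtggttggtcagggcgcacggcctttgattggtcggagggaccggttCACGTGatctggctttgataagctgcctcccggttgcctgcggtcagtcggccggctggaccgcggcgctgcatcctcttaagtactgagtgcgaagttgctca
The windows searched ran from 250 bases before to 50 bases after each start, on both strands. Ppp1r3c held an E-box 104 bases before the start, and Stbd1 held none of the 4 motifs searched. RefSeq gave 51 windows for 39 of the 40 members, some of which have several starts. CACGTG occurred in 7 of the 51 windows (Gaa, Gyg, Ldha, Pfkm, Ppp1r3c, Ppp1r3d and Slc16a1), and in 10.3% of the windows of tested genes. TTANNTAA, the core of the D-box that E4BP4 binds, occurred in 1 of the 51, at Eno1, and in 3.39% of the windows of tested genes. TAGGTCA, the core bound by ROR and REV-ERB receptors, occurred in 0 of the 51 and in 1.80% of the windows of tested genes. ACGTG, the core of the hypoxia response element, which every CACGTG contains, occurred in 24 of the 51 and in 25.98% of the windows of tested genes. These matches describe letters in the windows and no binding was measured.

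The other members that ranked highest by unadjusted p for time did not pass the test. Ugp2 had 186, 256 and 204 TPM in TG ZT12 and 208, 246 and 201 TPM in WT ZT12, against 222, 187 and 170 TPM in TG ZT0 and 200, 157 and 182 TPM in WT ZT0. The difference in log2 was 0.22 ± 0.10 (SE, adjusted p = 0.678, limma), and the times overlapped in TG mice. Pfkl, the liver phosphofructokinase, had 1.62, 2.40 and 2.27 TPM in TG ZT12, 2.29, 2.33 and 2.34 TPM in WT ZT12, 2.28, 3.13 and 2.92 TPM in TG ZT0, and 2.84, 6.995 and 2.14 TPM in WT ZT0. The library at 6.995 TPM is one of the pair that stood apart, and the log2 fold change of -0.38 became -0.12 without that pair.

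Ppp1r3d had 1.10, 1.62 and 2.00 TPM in TG ZT12, 1.63, 1.01 and 1.34 TPM in WT ZT12, 1.75, 3.17 and 1.89 TPM in TG ZT0, and 1.84, 2.05 and 1.26 TPM in WT ZT0. Its log2 fold change for time was -0.28 ± 0.14 (SE), and the groups overlapped. Phkg2 had 2.42, 4.50 and 3.74 TPM in TG ZT12, 4.33, 4.54 and 3.72 TPM in WT ZT12, 4.72, 4.01 and 3.68 TPM in TG ZT0, and 4.49, 9.28 and 4.98 TPM in WT ZT0. The log2 fold change for time was -0.31, and -0.07 without the pair of libraries that stood apart.

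The abundant enzymes of glycolysis lay close to 0 for time, in log2 fold change of ZT12 over ZT0: 0.03 for Aldoa (95% interval -0.14 to 0.20), 0.00 for Tpi1 (-0.13 to 0.14), 0.09 for Pgam2 (-0.09 to 0.26), -0.00 for Eno3 (-0.17 to 0.16), -0.05 for Pkm (-0.25 to 0.15) and 0.04 for Ldha (-0.11 to 0.20). Pfkm was at -0.12 (-0.39 to 0.14). Of the 15 glycolytic enzymes tested, 7 were higher and 8 lower, and for 13 the whole interval lay within 1.5 times in either direction. In glycogen metabolism 6 of 18 genes were higher and 12 lower, and the interval lay within 1.5 times for 12. Gys1 was at -0.21 (-0.56 to 0.15) and Pygm at -0.14 (-0.44 to 0.17). TG ZT12 replicate 1 was the lowest of all libraries for Gys1, Pygm and Pfkm. Gys1 had 49.2 TPM there, against 112 and 89.4 TPM in TG ZT12 replicates 2 and 3. Pygm had 1634 against 3263 and 3110 TPM, and Pfkm 828 against 1494 and 1355 TPM. The fold changes of these genes without that library are not given here. The median over the 39 members was -0.05, with 16 higher, beside -0.03 over all genes tested. Its sign turned on single libraries: it was 0.03 with 26 higher without TG ZT12 replicate 1, -0.11 with 8 higher without TG ZT12 replicate 2, and 0.08 with 32 of 38 higher without the pair that stood apart, beside 0.01, -0.07 and 0.09 over all genes tested. In TG mice 1 member (Stbd1, higher at ZT12) had no overlap between the times, where 7.08% of all genes tested had none. In WT mice 5 members had no overlap (Stbd1 and Ugp2 higher, Ppp1r3c, Gpd1 and Slc16a3 lower at ZT12), where 10.8% of all genes tested had none.

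**Figure D4:**
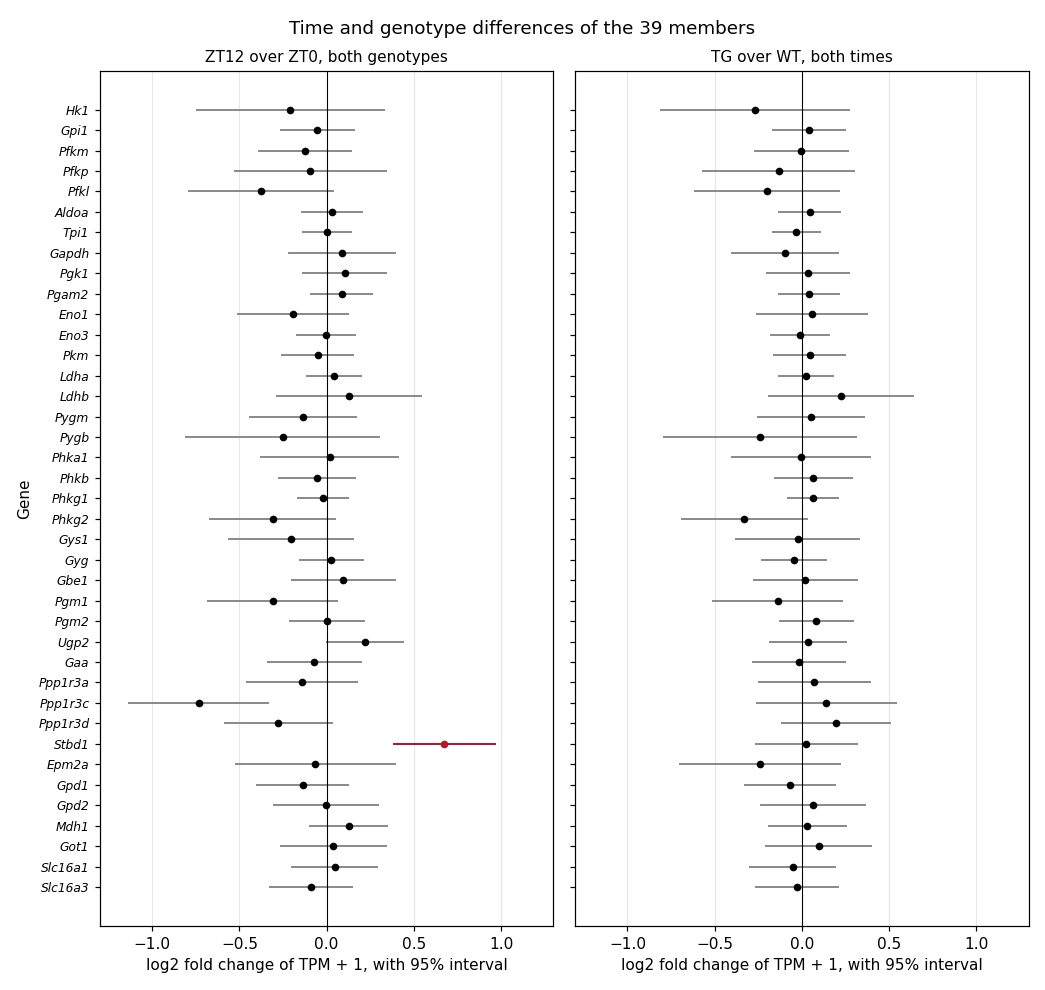
Log2 fold change of TPM + 1 with its 95% interval for the 39 members, ZT12 over ZT0 over both genotypes (left) and TG over WT over both times (right). Stbd1 (red, 0.68) is the 1 member called, Ppp1r3c lies at -0.73, and all 39 intervals on the right include 0.

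Of 58 other genes of the pathway, chosen for comparison with earlier results of these data known (glucose transporters, further hexokinases, fructose 2,6-bisphosphate enzymes, phosphatases, kinases and enzymes next to glycolysis), 48 were tested and 3 were called for time over both genotypes, 2 higher and 1 lower at ZT12. Pfkfb3, which makes the phosphofructokinase activator fructose 2,6-bisphosphate, had 38.0 to 53.4 TPM in TG ZT12 and 39.6 to 97.0 TPM in WT ZT12, against 8.28 to 15.0 TPM in TG ZT0 and 8.68 to 30.2 TPM in WT ZT0. In limma it was higher at ZT12 by a log2 fold change of 1.87 ± 0.28 (SE, adjusted p = 0.00447, limma), and all ZT12 libraries lay above all ZT0 libraries. Pfkfb4, another enzyme of that kind, had 15.2 to 21.3 TPM in TG ZT12 and 17.9 to 21.1 TPM in WT ZT12, against 23.4 to 30.8 TPM in TG ZT0 and 28.5 to 31.8 TPM in WT ZT0. In limma its log2 fold change was -0.55 ± 0.10 (SE, adjusted p = 0.0132, limma). Hk2 was at -0.52 (adjusted p = 0.0695, limma).

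Between the genotypes no member was called at either time. The members together held 6.38% ± 0.806 of the listed TPM in TG ZT12 and 6.24% ± 0.263 in WT ZT12, and 6.50% ± 0.154 in TG ZT0 and 6.25% ± 0.273 in WT ZT0 (SD, n = 3 each). At ZT0, at ZT12, over both times and in the interaction of genotype and time, 0.0% of all genes tested were called, and 0 of 39 members. Unadjusted p under 0.05 was reached by 0 members in each of these comparisons. Over all genes tested it was reached by 117 genes at ZT0, 99 at ZT12, 166 over both times and 69 in the interaction. limma-voom on the recovered reads also called 0 members in each.

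Over both times, the 95% interval of TG over WT lay within 1.5 times in either direction for 33 of 39 members and within 2 times for all 39. The exceptions at 1.5 times were Hk1, Pfkl, Ldhb, Pygb, Phkg2 and Epm2a. For the abundant enzymes the log2 fold changes of TG over WT were 0.04 for Aldoa (-0.13 to 0.22), -0.00 for Pfkm (-0.27 to 0.26), -0.01 for Eno3 (-0.18 to 0.16), 0.02 for Ldha (-0.13 to 0.18), 0.05 for Pygm (-0.25 to 0.36) and -0.02 for Gys1 (-0.38 to 0.33). Stbd1 was at 0.03 (-0.26 to 0.31) and Ppp1r3c at 0.14 (-0.26 to 0.54). At ZT0 the interval lay within 2 times for 36 members, all but Hk1, Ldhb and Pygb, and at ZT12 for 38, all but Epm2a.

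The count of members on each side of 0 depended on the scaling, on single libraries and on whether depth was a covariate. Over both times 21 of 39 were higher in TG with the TPM as deposited, 32 with median-of-ratios scaling and 31 with upper-quartile scaling. Of all 10415 genes tested, 1689 were higher in TG with the TPM as deposited. The count of members was 30 without TG ZT12 replicate 1, 11 without TG ZT12 replicate 2 and 33 of 38 without the pair that stood apart. The member medians were 0.09, -0.04 and 0.11 in these settings, beside -0.04, -0.13 and 0.03 over all genes tested. The median over the members was 0.02 with the deposited TPM, beside -0.09 over all genes tested, and 0.12 with median-of-ratios scaling, beside -0.00 over all genes. At ZT0 the median of all genes was -0.10 with the deposited TPM and 0.00 with upper-quartile scaling, and that of the members 0.01 and 0.13. At ZT12, 19 of 39 members were higher in TG in the fit reported and 29 with log2 depth as a covariate. The member median there went from -0.00 to 0.19 and that of all genes from -0.07 to 0.14. Depth did not overlap between the genotypes at ZT12, so their parts cannot be told apart. In the authors' deposited tables, whose fold changes are shrunken, 29 of 40 members were higher in TG at ZT0, with log2 fold changes from -0.03 to 0.21, and 34 of 39 at ZT12, from -0.05 to 0.13; of all genes listed there, 47.3% were higher in TG at ZT0 and 56.9% at ZT12. The smallest p in the authors' deposited tables was 0.0934 at ZT0 (Ldhb) and 0.217 at ZT12 (Pgm2).

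Ldhb had the largest difference between the genotypes at ZT0. It had 38.8, 44.1 and 47.4 TPM in TG ZT0, against 27.7, 32.4 and 28.5 TPM in WT ZT0, and 44.5, 52.4 and 23.2 TPM in TG ZT12, against 39.95, 51.4 and 32.3 TPM in WT ZT12. The genotypes did not overlap at ZT0, and at ZT12 they did. The means at ZT0 were 43.4 ± 4.33 TPM in TG and 29.5 ± 2.52 TPM in WT (SD, n = 3 each). The difference in limma was 0.54 ± 0.25 (SE) in log2 fold change (unadjusted p = 0.0525, adjusted p = 0.998). The interaction of genotype and time was -0.63 ± 0.35 (SE, adjusted p = 1.00, limma). Aldoa and Phkg1 also had no overlap at ZT0, with TG higher by 0.07 and 0.09 in log2 fold change. These were 3 of 39 members at ZT0, where 4.62% of all genes tested had no overlap between the genotypes; 0 members had none at ZT12, with 4.79% of all genes, and 0 over both times, with 0.0384%.

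Phkg2 had the smallest unadjusted p for genotype over both times, with the values given above. Its log2 fold change of TG over WT was -0.33 ± 0.17 (SE, adjusted p = 0.929, limma), and -0.09 without the pair of libraries that stood apart. Ppp1r3d was at 0.20 ± 0.14 (SE), and at 0.31 without the pair. Epm2a had 15.4, 43.6 and 32.7 TPM in TG ZT12, 41.9, 36.4 and 31.0 TPM in WT ZT12, 39.6, 35.7 and 22.9 TPM in TG ZT0, and 32.7, 40.7 and 32.0 TPM in WT ZT0. Its fold change of -0.24 on the log2 scale rested on TG ZT12 replicate 1, the lowest library, and was 0.020 without the pair. Hk1 had 1.21, 2.54 and 1.96 TPM in TG ZT12, 1.73, 2.36 and 2.10 TPM in WT ZT12, 1.90, 2.02 and 1.88 TPM in TG ZT0, and 1.54, 7.43 and 1.91 TPM in WT ZT0. Its log2 fold change of -0.27 was 0.098 without the pair, and that of Pfkl, -0.20, was 0.061.

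Much of the variation of the members lay between libraries of a group. TG ZT12 replicate 1 was the lowest of the 12 libraries for 25 of 39 members and TG ZT12 replicate 2 the highest for 22. In TG ZT12 replicate 1 the median deviation of the members from their 12-library median, in log2(TPM + 1), was -0.11 for the 14 members with transcripts under 2 kb, -0.35 for the 13 between 2 and 3 kb and -0.45 for the 12 over 3 kb. Over all genes tested the same library had -0.03, -0.25 and -0.44. In TG ZT12 replicate 2 the members had 0.20, 0.23 and 0.30, against 0.01, 0.13 and 0.22 over all genes tested. The part of transcript length in these values was not tested. WT ZT0 replicate 2 was the highest library for 8 members, and the 7 members that averaged under 5 TPM (Hk1, Pfkp, Pfkl, Pygb, Phkg2, Pgm1 and Ppp1r3d) had a median deviation of 1.14 there, against -0.01 for the other members and 0.30 for all genes tested. Cd74 was at 739 TPM in that library. The 5 macrophage markers summed to 265 TPM there against 45.8 to 150 TPM elsewhere, and 5 endothelial markers to 79.03 against 29.04 to 62.6 TPM. Single markers did not all peak there: Adgre1 was at 2.38 TPM, below 2.64 TPM in TG ZT12 replicate 2. Tek was at 5.02 TPM, below 6.44 TPM in WT ZT12 replicate 2. The 5 adipocyte markers summed to 621 TPM there and to 669 TPM in TG ZT12 replicate 3. The part of other cell types in these values was not tested.

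**Figure D5:**
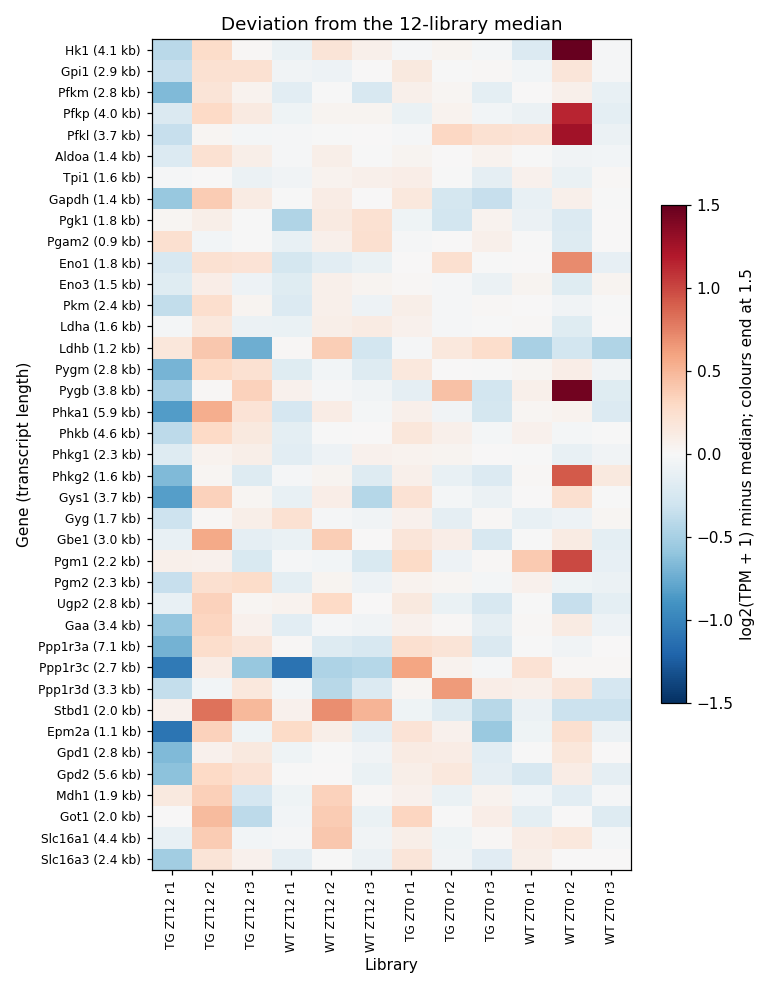
Deviation of log2(TPM + 1) from the 12-library median for the 39 members (rows, with transcript length) in the 12 libraries (columns), with the colour scale ending at 1.5 in each direction. TG ZT12 replicate 1 is lowest for 25 members, TG ZT12 replicate 2 highest for 22, and WT ZT0 replicate 2 high for the members of low level. The Stbd1 row changes sign between the ZT12 and ZT0 columns. The Ppp1r3c row does so in most columns, around a median of 213 TPM. Its exceptions are TG ZT12 replicate 2 at 230 TPM and TG ZT0 replicate 3 at 210 TPM.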

How the data were processed

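RNA of 12 gastrocnemius libraries was poly(A)-selected and made into unstranded libraries, per the labels' protocols, so a gene and its antisense neighbour are counted together where they overlap. Tools in the submitters' processing notes are HOMER 4.11.1, STAR, DESeq2 and bcl2fastq, with mm10 as the build. The authors deposited TPM values for 10475 genes, none of them below 1 TPM in WT ZT0 replicate 1, so the columns hold part of the full TPM total. The authors also deposited a table for each time with log2 values per library, a log2 fold change and p-values for TG over WT; these fold changes are quoted only where named.

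The members and lists were chosen with earlier results of these data known. Named in full are members called, and those of smallest unadjusted p for time and for genotype. limma 3.58.1 (R 4.3.3, empirical Bayes with trend) was run on log2(TPM + 1), a scale that understates fold changes of low genes. The 10415 genes that reached 1 TPM in 3 or more libraries entered the test, and adjusted p under 0.05 (Benjamini-Hochberg over all of them) was called. Contrasts of 2 groups and the interaction came from a model of the 4 groups, and values over both genotypes or times from genotype plus time.

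Reads per gene were recovered from TPM times transcript length: 98.6% to 98.8% of values under 500 reads came out whole within 0.1 read. limma-voom on these reads was added after seeing the data; it called 217 genes for time over both genotypes, against 106. Windows of 50 bases of GENCODE M21 transcripts were compared between loci. Promoter sequences are from RefSeq. The fit was also run on simulated data with noise drawn separately for each gene and library. That run lacked the shared deviations of libraries such as TG ZT12 replicate 1, and no result here rests on it. The fit reported did not pair libraries by replicate number, and a block by that number was run as an alternative. Values of some genes in the comparison list are not reported here.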

Additional observations from a re-analysis of the deposited data

How the results depend on the processing

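Across the alternatives run, 0 members were called for genotype at either time, over both times, in the interaction, or for time within a genotype. For time over both genotypes the count of members called was 1, and 2 (Stbd1 and Ppp1r3c) with median-of-ratios scaling, with the 10 highest genes removed and with limma-voom. It was 0 with log2 depth as a covariate, and 0 to 1 with each library left out. Among the other pathway genes the count was 3, and 5 with median-of-ratios or upper-quartile scaling, with the 10 highest genes removed, and with both libraries that stood apart (TG ZT12 replicate 1 and WT ZT0 replicate 2) left out; it was 0 with the depth covariate and 2 to 4 with each library left out. Over all genes 106 were called, against 233, 218 and 169 under those 3 scalings, 464 without the 2 libraries, 160 without TG ZT12 replicate 1, 70 without WT ZT12 replicate 2 and 2 with the depth covariate. The cause of these differences was not tested. Because depth moved with time, their parts cannot be told apart by the covariate.

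Without those 2 libraries, the log2 fold changes of TG over WT over both times turned sign for Epm2a (0.020), Hk1 (0.098) and Pfkl (0.061), and with the depth covariate that of Hk1 was 0.0098. With libraries left out they ranged from -0.36 to 0.020 for Epm2a, -0.39 to 0.098 for Hk1 and -0.31 to 0.061 for Pfkl, and none was called in any setting. Of the 23 alternatives, Stbd1 kept its call for time in 15 and Ppp1r3c, not called in the fit reported, was called in 4, and both kept their direction in all 23. Filters and pseudocounts changed no call of a member. With the replicate number as a block, 1 member was called for time over both genotypes and 130 of all genes. Deviations from the group mean correlated at -0.35 to 0.29 (median 0.06) over 18 pairs of libraries with the same number. Over 36 pairs with different numbers they correlated at -0.47 to 0.50 (median -0.02), and 6 of 12 libraries correlated best with their own number. At ZT12 the erythroid sums moved with the number, at 2959, 4565 and 145 TPM in TG replicates 1 to 3 and 1526, 4257 and 176 TPM in WT. The check took both times together, and whether the number marks a batch was not tested.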

Other observations

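In the pentose phosphate pathway, which branches from glycolysis at glucose 6-phosphate, G6pdx, Pgd and Tkt were highest in WT ZT0 replicate 2. G6pdx, its first enzyme, had 6.17 TPM in that library and a median of 1.75 TPM over the 12. Pgd, the next dehydrogenase, had 12.9 TPM there and a median of 5.90 TPM, and Tkt, the transketolase, 19.1 TPM and a median of 5.31 TPM. The same library held 739 TPM of Cd74, and the part of other cell types in these values was not tested. Taldo1, the transaldolase, averaged 48.3 TPM and was also highest in WT ZT0 replicate 2, at 64.2 TPM with a median of 47.7 TPM. Slc2a4, the insulin-responsive glucose transporter GLUT4, averaged 176 TPM.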
